A study of Mus musculus with 3 samples.

Results

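The let-7 and miR-98 family was followed in mouse colonic mucosa through every row of the deposited miRNA table whose name starts with let-7 and every row of hairpin miR-98. This gave 17 of the 471 rows, of which 9 are 5p arms and 8 are 3p arms. All 17 had a mean of at least 10 normalized reads over the 3 libraries, the limit that kept 415 rows of the table. None of the 17 was listed at 0 in any library. Each library is the single sample of its group. WT is a mir-10b+/+ mouse labelled healthy, KO is a mouse with global loss of mir-10b (mir-10b-/-) labelled diabetic, and mimic is a mir-10b-/- mouse that was injected with a synthetic miR-10b-5p and is labelled rescue. Genotype and diabetic state therefore differ together between WT and KO. The labels used here give no age, sex, dose, time, control injection or number of animals behind a library. Every difference below is a difference between single libraries, with no replicate check and no test.

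miRNAs of the let-7 family are short RNAs that lower the output of messenger RNAs carrying matching sites, and pairing rests mainly on the seed, bases 2 to 8 from the 5′ end. The hairpin precursor is cut into a 5p and a 3p strand, and for let-7 the 5p strand is generally the one kept in the silencing complex. The family is known for rising as cells differentiate and for restraining growth genes such as Hmga2, Ras genes and Igf2bp genes. The RNA-binding proteins Lin28a and Lin28b block maturation of most let-7 precursors and are themselves let-7 targets. In the intestinal epithelium of mice, forced Lin28b or loss of let-7 is known to promote growth of the tissue.

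The 9 mature 5p sequences, from RefSeq (GRCm38.p6), are shown because the rows to be compared differ from each other by only a few bases outside a common seed, which is in capitals.
let-7a-5p: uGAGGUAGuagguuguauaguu
let-7b-5p: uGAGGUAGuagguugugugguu
let-7c-5p: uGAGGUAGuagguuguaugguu
let-7d-5p: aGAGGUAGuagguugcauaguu
let-7e-5p: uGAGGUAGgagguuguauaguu
let-7f-5p: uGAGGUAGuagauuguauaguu
let-7g-5p: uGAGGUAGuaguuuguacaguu
let-7i-5p: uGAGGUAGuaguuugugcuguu
miR-98-5p: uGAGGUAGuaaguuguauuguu
All 9 are 22 bases long and carry the seed GAGGUAG. Counting from the 5′ end, let-7c-5p differs from let-7a-5p by A19G, let-7e-5p by U9G and let-7f-5p by G12A. let-7b-5p differs from let-7a-5p by A17G and A19G, and from let-7c-5p by 1 base. let-7d-5p carries U1A and U16C, let-7g-5p G12U and U18C, and miR-98-5p G11A and A19U. let-7i-5p is the farthest from let-7a-5p, with G12U, A17G, U18C and A19U. Of the 36 pairs of 5p members, 4 differ at 1 base and 10 at 2 bases. Whether the counting allowed mismatches is not given in the sources used here, so reads of members 1 base apart could be shared between their rows. RefSeq has 2 further mature miRNAs with this seed, let-7k and miR-1961, which have no row among those analysed here.

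The 3p arms do not share a seed, and 4 of their sequences are shown because their rows stand out below or cannot be tied to a locus. Seeds are in capitals.
let-7d-3p: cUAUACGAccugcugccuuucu
miR-98-3p: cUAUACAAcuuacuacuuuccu
let-7c-1-3p: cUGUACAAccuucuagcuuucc
let-7c-2-3p: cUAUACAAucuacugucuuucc
The seed UAUACAA is held by let-7b-3p, miR-98-3p, let-7a-1-3p, let-7c-2-3p and let-7f-1-3p. let-7g-3p has CUGUACA, let-7i-3p UGCGCAA, let-7e-3p UAUACGG and let-7d-3p UAUACGA. The table has a single row each for let-7c-3p and let-7f-3p, while the genome has 2 hairpins for each with different 3p sequences, so these rows have no exact RefSeq match and the other 15 do. The sequence of let-7c-2-3p is identical to that of let-7a-1-3p, and no 3p row of let-7a was analysed here. The let-7c-3p row may therefore hold reads of more than 1 hairpin.

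As a check of the labels, miR-10b-5p had 18057 normalized reads in WT against 14 in KO and 469 in mimic. The table's values summed to 4872446 for WT, 8124898 for KO and 8510085 for mimic. Where values are given as a series of 3 below, the order is WT, KO, mimic. The sequencing depth is unknown, so no counting intervals are given. All 9 epithelial marker miRNAs were measured and summed to 33.4% of the WT total, 33.0% of KO and 29.6% of mimic. Of 7 smooth muscle markers 6 were measured, summing to 11.8%, 13.1% and 26.4%. The 5 white blood cell markers summed to 0.749%, 0.239% and 0.609%, the 2 endothelial ones to 1.23%, 0.959% and 1.44%, and 3 measured fibroblast markers of 4 listed to 1.08%, 0.822% and 0.619%. The 2 red cell markers summed to at most 0.0398% and the 3 neuronal ones to at most 0.0317% of any library. No measured marker of these lists was at 0 in any library.

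Among the 5p rows, let-7f-5p and let-7g-5p were the most abundant members in every library. let-7f-5p was at 51022, 105438 and 112419 normalized reads, and let-7g-5p was at 50354, 124550 and 97101. Their order was reversed in KO, where let-7g-5p ranked 10 and let-7f-5p 14 among all 471 rows. Next in WT came let-7i-5p, made from a locus of its own, at 37176, with 63556 in KO and 34098 in mimic. let-7c-5p was at 30393, 79683 and 32094 and so stood above let-7i-5p in KO alone. A middle group of let-7b-5p, let-7a-5p and let-7d-5p followed. let-7b-5p was at 20853, 33448 and 8691, so that mimic was its lowest library. let-7a-5p was at 19060, 53329 and 24447. let-7d-5p was at 9713, 16641 and 13073. let-7e-5p at 2350, 6493 and 1268, and miR-98-5p at 1662, 3821 and 3057, were the lowest 5p members, and they changed places between KO and mimic. Without replicates it cannot be said which neighbours in this order differ beyond their spread.

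**Figure D1:**
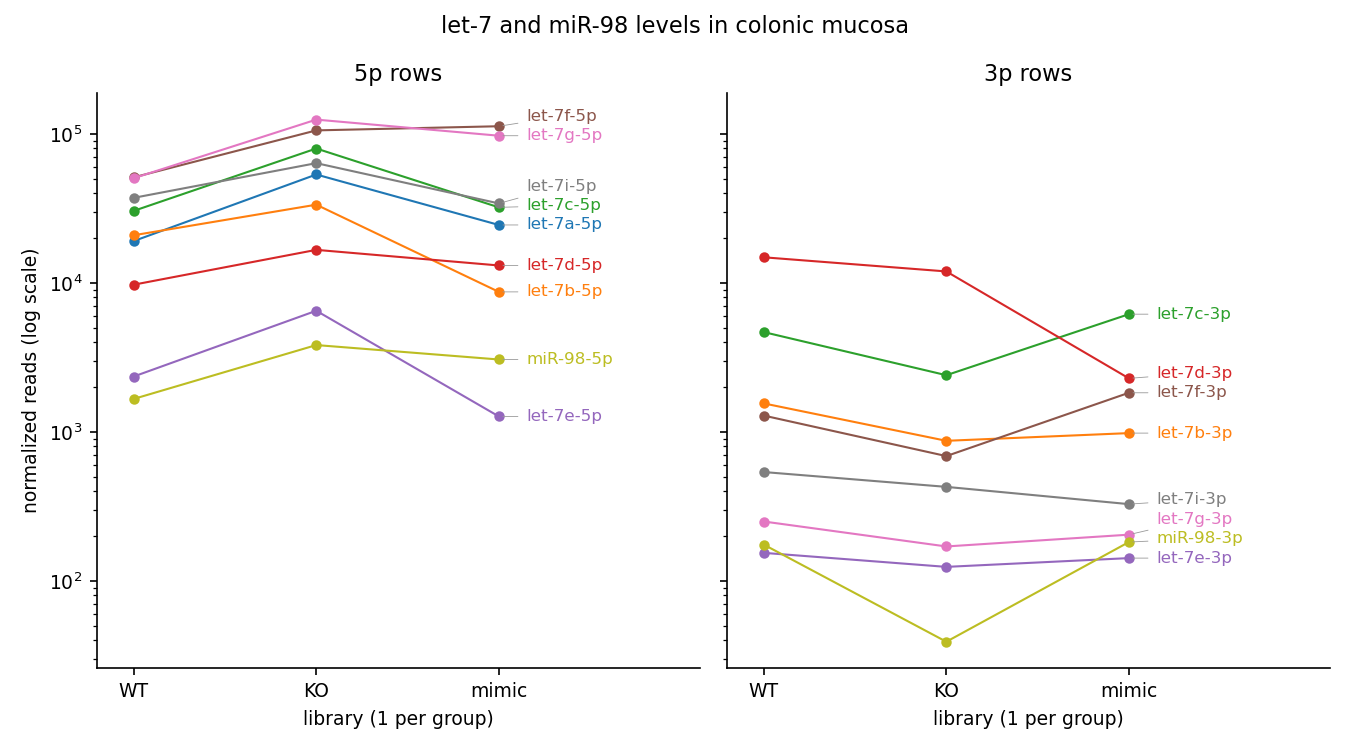
Normalized reads (log scale) of the 9 5p rows and 8 3p rows in WT, KO and mimic, 1 point per library and lines joining the values of a row. All 5p lines go up from WT to KO while all 3p lines go down. Of all 415 rows, 223 were higher and 191 lower in KO. In mimic let-7e-5p (1268), let-7b-5p (8691) and let-7d-3p (2284) lie below both other libraries, as do both arms of let-7i.

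Together the 9 5p rows summed to 222583, 486959 and 326248 normalized reads. These sums made up 4.57%, 5.99% and 3.83% of the libraries' totals, so the share was highest in KO and lowest in mimic. let-7f-5p and let-7g-5p made up 45.5% of the 5p pool of WT, 47.2% of that of KO and 64.2% of that of mimic. The other 7 rows summed to 121207, 256971 and 116728. let-7b-5p was 9.37% of the pool in WT, 6.87% in KO and 2.66% in mimic. let-7f-5p alone was 22.9%, 21.7% and 34.5%. Shares within the pool do not depend on how the libraries are scaled to each other.

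**Figure D2:**
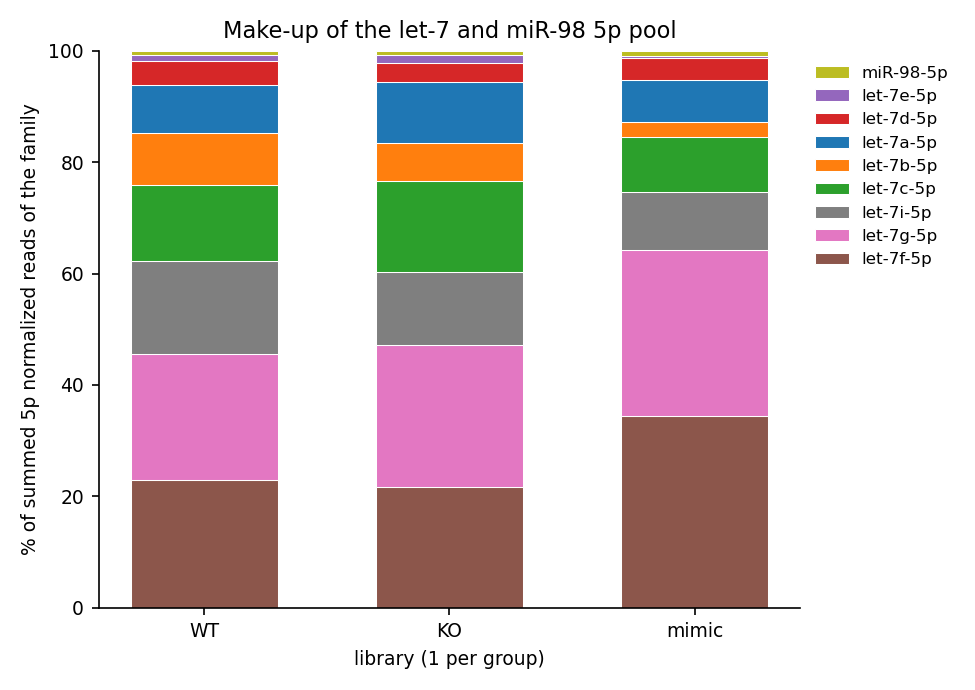
Share of each member in the summed 5p normalized reads of the family, in percent, with 1 stacked bar per library. let-7f-5p and let-7g-5p fill 45.5% of the WT bar, 47.2% of the KO bar and 64.2% of the mimic bar, and the let-7b-5p segment shrinks from 9.37% to 2.66%.

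The first comparison, KO against WT, asks how the miRNAs of the mucosa differ between a mouse without mir-10b and a wild type. All 9 5p members had more normalized reads in KO, beside 223 of all 415 rows and 119 of the 188 other 5p rows. Of the 9 members, 6 passed the limit of 2-fold on the higher side, beside 21.2% of all rows. None was at least 2-fold lower, beside 9.64% of all rows. The median log2 ratio, after adding 1 to each value, was 1.20 for the 5p members and 0.13 for all rows. The 77 other 5p rows whose mean reached 1000 had a median of 0.31. In a bulk sample, fewer cells of a type and less RNA per cell cannot be told apart.

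The largest 5p ratios belonged to let-7a-5p, which was 2.80-fold higher in KO, and to let-7e-5p, 2.76-fold higher. let-7c-5p was 2.62-fold, let-7g-5p 2.47-fold, miR-98-5p 2.30-fold and let-7f-5p 2.07-fold higher. The 3 members under the limit were let-7i-5p and let-7d-5p, both 1.71-fold higher, and let-7b-5p, 1.60-fold higher. The 9 ratios thus lay between 0.68 and 1.48 on the log2 scale, a narrower band than the quartiles of all rows, which were -0.54 and 0.82. With both libraries scaled to the same total every log2 ratio became 0.74 lower, and 0 of 9 rows passed the limit (7.23% of all rows). The median was then 0.46 against -0.60 for all rows. Above 0 were 8 of 9 members, beside 120 of all 415 rows, and let-7b-5p was at -0.06. With median-of-ratios factors 5 of 9 passed (17.1% of all rows), with a median of 1.05.

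All 8 3p members stood lower in KO than in WT, the side opposite to the 5p rows. This is beside 191 of all 415 rows and 107 of the 200 other 3p rows. Only miR-98-3p passed the 2-fold limit, at 175, 39 and 182 normalized reads, a ratio of 4.49 between WT and KO. This is 1 of 8 beside 9.64% of all rows. The median log2 ratio was -0.69, and -0.05 over the 200 other 3p rows. let-7c-3p was at 4669 in WT and 2398 in KO (1.95-fold lower), let-7f-3p at 1285 and 687 (1.87-fold) and let-7b-3p at 1551 and 870 (1.78-fold). let-7g-3p, at 250 and 170, was 1.47-fold lower. let-7d-3p at 14833 and 11921, let-7e-3p at 154 and 124 and let-7i-3p at 537 and 427 were nearest to each other in the pair of libraries, with log2 ratios of -0.32, -0.31 and -0.33. All 8 were at least 2-fold lower with equal totals, beside 34.0% of all rows, and 3 with median-of-ratios factors, beside 14.7%. At a limit of 1.5-fold, all 9 5p rows were higher (33.3% of all rows) and 4 of 8 3p rows lower (21.4%).

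**Figure D3:**
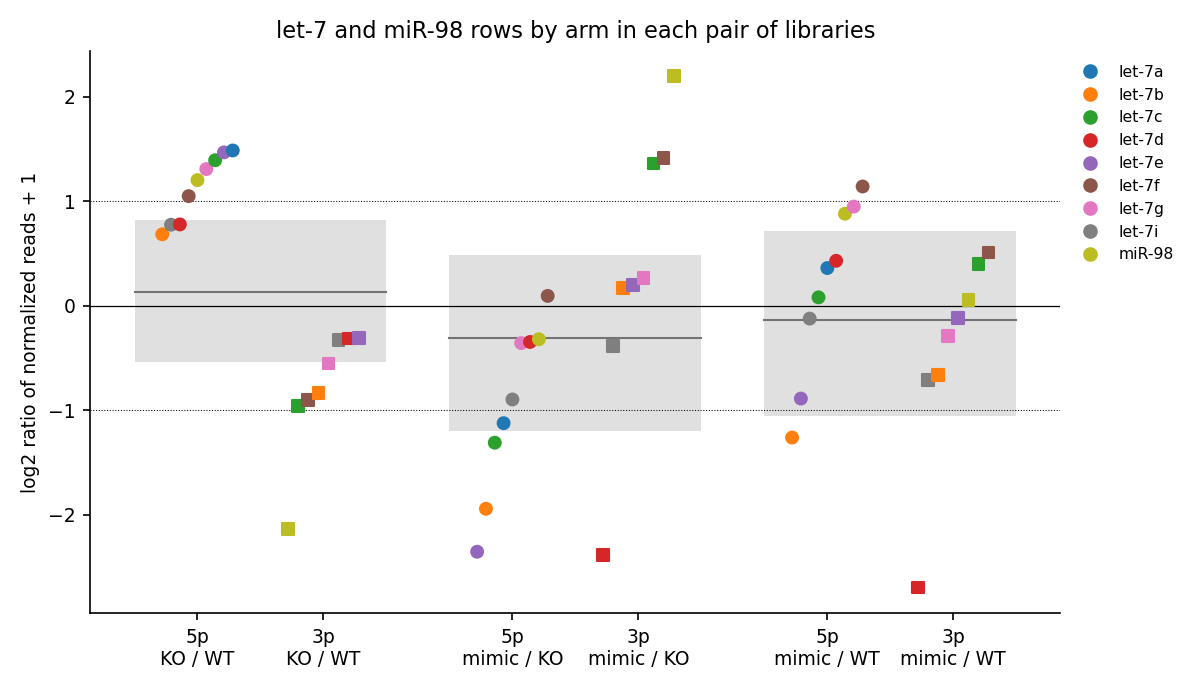
Log2 ratios of normalized reads + 1 for each member in the 3 pairs of libraries, circles for 5p rows and squares for 3p rows. Grey bands span the quartiles of all 415 rows, the grey line is their median and dotted lines mark 2-fold. In KO / WT the 5p members lie between 0.68 and 1.48 and the 3p members between -2.14 and -0.31, with no overlap. The medians of the other 5p and other 3p rows were 0.27 and -0.05.

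Since both arms come from the same library, the 5p to 3p ratio of a hairpin is free of the scaling between libraries. It was higher in KO by 2-fold or more for all 8 hairpin names with both arms, beside 35.2% of the 142 hairpin names in the table with both arms kept. The median difference was 1.82 on the log2 scale for the 8 and 0.55 for the 142. let-7g had the most uneven arms, with 201 5p reads per 3p read in WT, 733 in KO and 476 in mimic. For let-7f the ratio was 39.7, 153 and 61.5, with the reservation on its 3p row given with the sequences above. For let-7i it was 69.2, 149 and 104. For these 3 names mimic lay between WT and KO.

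For let-7b, let-7c and let-7e the ratio was lowest in mimic. let-7b had 13.4 5p reads per 3p read in WT, 38.4 in KO and 8.87 in mimic. let-7c had 6.51, 33.2 and 5.21, with the reservation on its 3p row given above. let-7e had 15.3, 52.4 and 8.93. miR-98 was at 9.50, 98.0 and 16.8, and its KO ratio rests on a 3p value of 39. In mimic against KO, 5 of the 8 ratios were at least 2-fold lower (26.1% of all hairpin names) and 1 was at least 2-fold higher (22.5%).

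That single higher ratio was let-7d, which had the lowest ratio of the 8 names in WT and KO. In WT its 3p arm was the more abundant, at 14833 against 9713 for the 5p arm, a 5p to 3p ratio of 0.655. The ratio was 1.40 in KO and 5.72 in mimic. Of the 8 names it was the only one with a ratio below 1 in any library and the only one highest in mimic. let-7d-3p made up 63.2% of all 3p reads of the family in WT, 71.7% in KO and 18.9% in mimic.

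**Figure D4:**
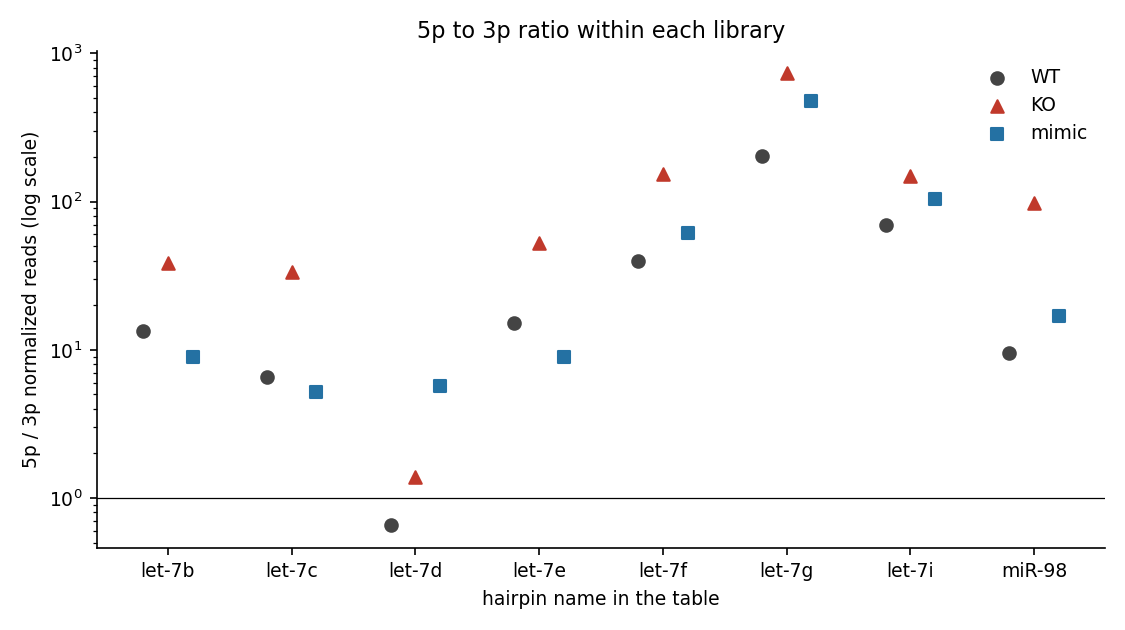
5p normalized reads divided by 3p normalized reads (log scale) for each hairpin name with both arms, within WT, KO and mimic. KO lies above WT for all 8 names, beside 92 of the 142 hairpin names with both arms kept, and let-7d alone is highest in mimic, at 5.72.

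The second comparison sets the knockout injected with miR-10b-5p beside the knockout without it. The 5p members lay between -2.36 and 0.09 on the log2 scale here, a wider band than in KO against WT. The quartiles of all rows were -1.20 and 0.49. let-7e-5p (5.12-fold lower in mimic), let-7b-5p (3.85-fold), let-7c-5p (2.48-fold) and let-7a-5p (2.18-fold) were at least 2-fold lower, which is 4 of 9 beside 28.2% of all rows. let-7i-5p was 1.86-fold lower. let-7g-5p, miR-98-5p and let-7d-5p were 1.28-fold, 1.25-fold and 1.27-fold lower, and let-7f-5p was 1.07-fold higher. None was at least 2-fold higher, beside 13.3% of all rows. The median log2 ratio was -0.90 for the 5p members and -0.31 for all rows. With equal totals 4 of 9 were at least 2-fold lower, beside 30.6% of all rows. With median-of-ratios factors 3 of 9 were, beside 24.1% of all rows, since let-7a-5p then stood at -0.84.

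Members 1 base apart differed in their ratios. let-7f-5p and let-7a-5p differ by G12A, and their log2 ratios of mimic against KO were 0.09 and -1.13. let-7e-5p and let-7a-5p differ by U9G, and stood at -2.36 and -1.13. let-7c-5p, at -1.31, lay nearer to let-7a-5p, and let-7b-5p, 1 base from let-7c-5p, was at -1.94. In KO against WT let-7a-5p, let-7c-5p and let-7e-5p had been close together, at 1.48, 1.39 and 1.47. Differences between rows of 1 pair of libraries do not depend on the scaling.

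Of the 8 3p rows, 3 were at least 2-fold higher with the mimic (13.3% of all rows) and 1 was at least 2-fold lower (28.2%). miR-98-3p was 4.67-fold higher, let-7f-3p 2.66-fold, at 687 and 1828, and let-7c-3p 2.57-fold, at 2398 and 6158. let-7d-3p went the other way, 5.22-fold lower, at 11921 in KO and 2284 in mimic. let-7b-3p at 980 in mimic, let-7e-3p at 142, let-7g-3p at 204 and let-7i-3p at 327 were within 1.5-fold of their KO values. The median was 0.23, whereas the summed 3p reads were lower, at 16636 in KO and 12105 in mimic, because let-7d-3p dominated the sum. Without let-7d-3p the 3p sum was 4715 in KO and 9821 in mimic. The counts of 3 and 1 were the same with equal totals, beside 12.8% and 30.6% of all rows, and with median-of-ratios factors, beside 18.6% and 24.1%. At a limit of 1.5-fold, 5 of 9 5p rows and 1 of 8 3p rows were lower (40.5% of all rows), and 0 5p rows and 3 3p rows were higher (22.9%).

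In the third comparison, mimic against WT, the 5p rows lay on both sides of WT. let-7f-5p was 2.20-fold higher in mimic, the only row of 9 past the limit on that side (19.8% of all rows). let-7b-5p was 2.40-fold lower, the only one past it on the other (25.8%). let-7g-5p at 1.93-fold and miR-98-5p at 1.84-fold were next highest, and let-7e-5p was 1.85-fold lower. let-7c-5p, let-7i-5p, let-7a-5p and let-7d-5p had log2 ratios of 0.08, -0.12, 0.36 and 0.43. With equal totals 0 of 9 were at least 2-fold higher (7.23% of all rows) and 2 lower (46.7%), let-7b-5p at -2.07 and let-7e-5p at -1.69. With median-of-ratios factors 3 were higher and 1 lower, beside 22.9% of all rows on each side. Among 3p rows let-7d-3p was 6.49-fold lower, and the other 7 stood between -0.71 and 0.51 on the log2 scale. At a limit of 1.5-fold, 3 of 9 5p rows and 0 of 8 3p rows were higher (27.2% of all rows), and 2 5p rows and 3 3p rows were lower (34.9%).

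Among the 5p members, base composition ran alongside these ratios. The 5p members hold between 7 and 10 G or C bases of 22. let-7f-5p and miR-98-5p, with 31.8% G + C, had log2 ratios of mimic against WT of 1.14 and 0.88. let-7g-5p and let-7a-5p, with 36.4%, stood at 0.95 and 0.36. let-7b-5p, with 45.5%, was lowest at -1.26. The 4 members with 40.9%, let-7c-5p, let-7d-5p, let-7e-5p and let-7i-5p, ranged from -0.89 to 0.43. Over the 9 members Spearman's rho was -0.86 for mimic over WT, -0.75 for mimic over KO and -0.35 for KO over WT. The 9 points come from the same pair of libraries and share seed and length, so the values describe them only. Over the 326 matched rows outside the family rho was -0.31, -0.25 and -0.05 in the same order. There the median log2 ratio of mimic against WT was 0.58 for 31 rows below 35% G + C and -0.64 for 73 rows of 55% or more. The 6 matched 3p rows of the family had no such order in mimic against WT. miR-98-3p, with 31.8%, was at 0.06, and let-7b-3p and let-7d-3p, with 50%, were at -0.66 and -2.70. let-7e-3p, with 54.5%, was at -0.12, and let-7g-3p and let-7i-3p, with 59.1%, were at -0.29 and -0.71. The part of base composition in the family's ratios was not tested.

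**Figure D5:**
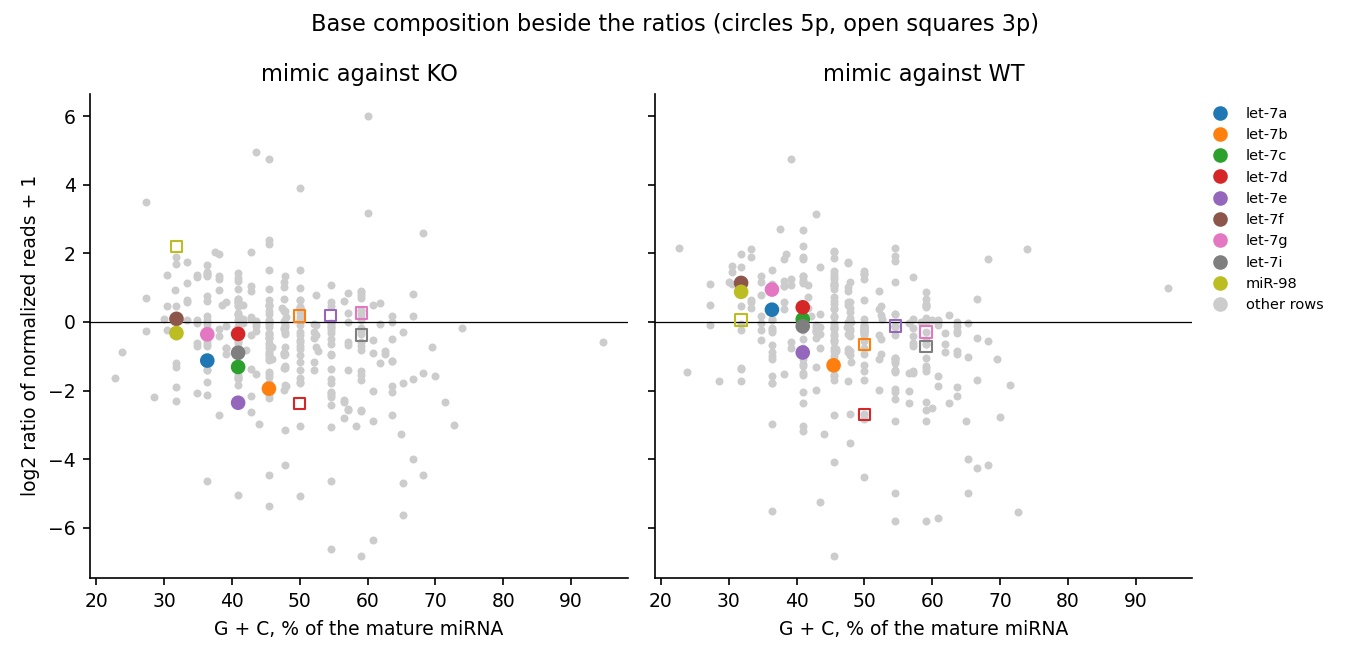
Log2 ratio of normalized reads + 1 against the G + C percentage of the mature miRNA, for mimic against KO and mimic against WT, with 5p members as circles, the 6 matched 3p members as open squares and 326 other rows in grey. In mimic against WT the highest 5p circle is let-7f-5p at 31.8% (1.14) and the lowest let-7b-5p at 45.5% (-1.26). The fall between them is not stepwise, as let-7d-5p at 40.9% (0.43) lies above let-7a-5p at 36.4% (0.36). In mimic against KO the lowest is let-7e-5p at 40.9% (-2.36).

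The family comes from several loci of GRCm38, and abundant members such as let-7a-5p, let-7c-5p and let-7f-5p each sum 2 hairpins, so a row cannot be given to 1 locus. On chromosome 13, Mirlet7d (48536012 to 48536114), Mirlet7f-1 and Mirlet7a-1 (48538179 to 48538272) lie on the minus strand in exons of the lincRNA 6720427I07Rik. In mimic against KO, let-7a-5p and let-7f-5p, which this cluster shares with other loci, stood at -1.13 and 0.09, let-7d-5p at -0.35 and let-7d-3p at -2.38, while let-7f-3p, which may come in part from it, was at 1.41. On chromosome X, Mirlet7f-2 (151912346 to 151912428) and Mir98 (151913214 to 151913321) lie 785 bases apart in an intron of Huwe1, a ubiquitin ligase gene. The 3p rows let-7f-3p and miR-98-3p were both lower in KO than in WT and both more than 2-fold higher in mimic than in KO, although let-7f-3p may also come from chromosome 13. This is not particular to the locus. All 8 3p rows were lower in KO (191 of all 415 rows), and let-7c-3p, with no hairpin on chromosome X, was at 1.36 in mimic against KO. The 5p rows let-7f-5p and miR-98-5p stood at 0.09 and -0.32 in mimic against KO. On chromosome 15, Mirlet7c-2 (85706603 to 85706697) and Mirlet7b (85707319 to 85707403) lie in exons of the noncoding RNA Lncppara.

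Mirlet7g lies on chromosome 9 at 106178840 to 106178927 in an intron of Wdr82, and Mirlet7i on chromosome 10 at 122985640 to 122985724, within the transcribed pseudogene D630033A02Rik. Neither has another hairpin of the family within 50000 bases on its strand. Their 5p rows had log2 ratios of mimic against KO of -0.36 and -0.90.

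Other let-7 hairpins share transcripts with miR-99, miR-100 and miR-125. Mirlet7e (17830352 to 17830444) lies on chromosome 17 in an intron of Spaca6, 367 bases from Mir125a. let-7e-5p differed 2.76-fold and 5.12-fold between libraries as given above, whereas its cluster partners miR-125a-5p, at 8251, 6833 and 6918, and miR-99b-5p, at 23690, 21848 and 22007, stayed within 1.5-fold as deposited. With equal totals, KO against WT gave log2 ratios of -1.01 for miR-125a-5p and -0.85 for miR-99b-5p beside 0.73 for let-7e-5p. Mirlet7c-1 (77599657 to 77599750) lies on chromosome 16 in an intron of Mir99ahg, 656 bases from Mir99a. Mirlet7a-2 (41536716 to 41536811) lies on chromosome 9, 5211 bases from Mir100. The partner rows miR-99a-5p and miR-100-5p share their values, 14536, 24780 and 38282, and so were highest in mimic where let-7a-5p and let-7c-5p were highest in KO. miR-125b-5p was at 7257, 16539 and 17321. Of the 10 partner rows, 1 was at least 2-fold higher and 1 at least 2-fold lower in KO against WT (21.2% and 9.64% of all rows), with a median log2 ratio of 0.15. In mimic against KO the counts were again 1 and 1 (13.3% and 28.2%), with a median of 0.07. In mimic against WT 4 were higher and 1 lower (19.8% and 25.8%), with a median of 0.48. The 4 include miR-99a-5p and miR-100-5p, whose shared value is thus counted in both rows. miR-125b-3p has 2 rows among the 10, so these counts and medians are not of 10 separate miRNAs.

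Cell type markers differed between the libraries beside these values. The summed epithelial markers had log2 ratios of 0.72 for KO over WT, -0.09 for mimic over KO and 0.63 for mimic over WT, where the summed let-7 and miR-98 5p rows had 1.13, -0.58 and 0.55. Of the 9 epithelial rows, 1 was at least 2-fold higher and 0 lower in KO against WT (21.2% and 9.64% of all rows), 0 higher and 3 lower in mimic against KO (13.3% and 28.2%), and 2 higher and 0 lower in mimic against WT (19.8% and 25.8%). The summed smooth muscle markers had 0.89, 1.08 and 1.97 in the same order. Of 6 measured rows, 3 were at least 2-fold higher and 1 lower in KO against WT (21.2% and 9.64% of all rows). In mimic against KO 4 were higher and 0 lower (13.3% and 28.2%), and in mimic against WT 5 were higher and 0 lower (19.8% and 25.8%). The summed white blood cell markers had -0.91, 1.41 and 0.51, with 1 of 5 rows past 2-fold in each comparison. It was miR-142a-5p, lower in KO against WT (9.64% of all rows) and higher in mimic against KO (13.3%). For mimic against WT it was miR-150-5p, which was lower (25.8% of all rows), on the side opposite to the sum. miR-142a-5p, the most abundant of these markers in WT, had log2 ratios of -1.16 in KO against WT and 1.74 in mimic against KO. In the same order miR-223-3p, at -0.29 and 0.63, lay on the side of the sum. miR-142a-3p, at 0.79 and -0.61, and miR-155-5p, at 0.20 and -0.71, lay on the opposite side. The part of cell make-up in the let-7 values was not tested.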

How the data were processed

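Small RNA libraries from mouse colonic mucosa were made with a TruSeq small RNA kit from Trizol-extracted total RNA and sequenced as single-end 50-base reads, per the labels' protocols. Per the file headers, the deposited score is the authors' normalized read number of each mature miRNA, rounded to whole numbers. The 2 columns of differences in the deposited table (KO minus WT, mimic minus KO) were not used. The submitters' processing notes name mm10. How reads were aligned, counted and normalized is not given in the sources used here.

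Values were used as deposited in Python 3.11.15 with pandas 2.3.3. Rows with a mean below 10 were removed, which left 415 of 471. Ratios are log2 with a pseudocount of 1, and at least 2-fold counts as higher or lower. Arm ratios leave out names that occur more than once. With 1 library per group no test was run. The family's rows are all named. Outside it only the let-7 cluster partners, marker lists and the 5 rows nearest in pattern are named. Members and lists were chosen with earlier results of these data known. Row counting was tested on simulated data whose low values were raised and whose planted changes were larger than the limit. Low rows and changes near the limit were not covered. Sequences and positions are from RefSeq (GRCm38.p6) and overlaps from GENCODE M21.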

Additional observations from a re-analysis of the deposited data

How the results depend on the processing

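Scaling mattered most. With equal totals, KO against WT had 0 5p rows at least 2-fold higher (7.23% of all rows) and 8 3p rows lower (34.0%). The 5p median was 0.46 and the summed 5p level 0.39 on the log2 scale, beside -1.43 and -1.23 for 3p. Mimic against WT then had 0 5p rows higher (7.23% of all rows) and 2 lower (46.7%), with a median of -0.45 and a summed level of -0.25. Of the 8 3p rows 4 were lower, beside the same 46.7%, with a median of -1.005 and a summed level of -1.76. The 200 other 3p rows had a median of -1.04. Median-of-ratios factors gave 3 3p rows lower in KO against WT (14.7% of all rows) and 3 5p rows higher in mimic against WT (22.9%). A 1.5-fold limit gave 4 3p rows lower in KO against WT (21.4% of all rows), and in mimic against WT 3 5p rows higher (27.2%), 2 5p rows lower and 3 3p rows lower (34.9%). The shifts by scaling and limit follow from their construction.

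Counts, medians and sums in mimic against KO stayed within 1.5 times under every alternative run. Pseudocounts of 0.1 and 10, no filter, and a mean of at least 100 moved no count, median or single ratio by more than that. No ratio of at least 2-fold changed sign under an alternative. For values without replicates, a move beyond 1.5 times was counted as a change. No paired analysis was possible because each group has 1 library. Depth is unknown, so low rows such as miR-98-3p, at 39 normalized reads in KO, have no counting error.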

Other observations

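Outside the family, the rows whose pattern over the 3 libraries lay nearest to the summed let-7 5p level were ranked among the 285 rows whose mean reached 100, by the Euclidean distance between centred log2 values. miR-146a-5p, which restrains innate immune signalling, was nearest at a distance of 0.12, with 9351 normalized reads for WT, 20555 for KO and 12452 for mimic. miR-200a-3p, an epithelial miRNA, followed at 0.13, with 380522, 754583 and 498181. Like the summed 5p level of the family, both were highest in KO and lowest in WT as deposited. As a share of the library total, the summed 5p level was lowest in mimic, at 4.57%, 5.99% and 3.83% for WT, KO and mimic.

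The next nearest were miR-411-3p at 0.17, with 209, 410 and 323 normalized reads, miR-21a-3p at 0.23, with 462, 1062 and 840, and miR-218-5p at 0.23, with 507, 885 and 666. Likeness over 3 values describes these libraries only.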
